A study of Mus musculus with 30 samples.

Results

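Fecal bacteria of mice fed a high-fructose diet (HFru) were compared between 6 mice given hydroxytyrosol and 6 model mice given saline. Members were taken by their group label, which gave 12 of the 30 mice of the series. The model group had female C57BL/6 mice (C57BL/6J in the methods) on HFru, a diet with 60% fructose, with saline given by gavage each day. The hydroxytyrosol group had female C57BL/6 mice on the same diet, with hydroxytyrosol at 26 mg/kg by the same route. All 30 mice carried an age label of 6 weeks, which in the study's methods is the age at purchase. The feeding lasted 8 weeks according to the methods and 12 weeks according to the figure legends. Stool was collected once, at the end of treatment, so no mouse was its own baseline, and neither the labels nor the methods name a cage or a sequencing batch. Mice are numbered as in the sample titles. Another 6 control mice on normal diet (female C57BL/6, saline) serve here as background levels. Values are also given for 6 female C57BL/6 mice on HFru with salidroside at 50 mg/kg and 6 with tyrosol at 23 mg/kg, both by gavage.

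Hydroxytyrosol is a phenylethanoid of olive oil and olive leaf, and it differs from tyrosol by an additional phenolic hydroxyl group. The large bowel of a mouse holds little oxygen, and its usual residents are obligate anaerobes of the Clostridiales and Bacteroidales that ferment fiber and mucus to short-chain fatty acids. Bacteria that need oxygen, such as Acinetobacter, are common in soil, water, food and bedding, and enterobacteria and lactic acid bacteria grow with or without oxygen. Sequencing of the 16S rRNA gene gives the share of each kind of bacterium among the sequences of a sample, not the number of cells. Thus, fewer cells of one kind and more cells of the others cannot be told apart from these shares.

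The filtered table held 87731 to 104427 counts per model mouse and 71930 to 101386 per hydroxytyrosol mouse, in 5838 amplicon sequence variants (ASVs, the distinct sequences that were counted). The groups started from similar numbers of reads, with a difference of -0.0013 on the log2 scale (exact permutation test, p = 0.989). A count of 0 allows a share of up to 0.00287% in the deepest and 0.00417% in the shallowest of the 12 mice, taking 3 counts as the limit. The widest 95% Wilson interval of a share printed for a single mouse spanned 0.731 percentage points. These limits cover counting error only, since PCR reads are not independent molecules. Model mouse 6 and hydroxytyrosol mouse 2 stood apart from their groups. Model mouse 6 held 0.601% Moraxellaceae, where the other model mice held 50.8% to 85.5%, and hydroxytyrosol mouse 2 held 44.6%, where the other hydroxytyrosol mice held 0.0543% to 18.3%. Model mouse 2 had counts of 78 families at even depth, where the other model mice had 45 to 59.

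Moraxellaceae led in model mice 1 to 5 and in hydroxytyrosol mouse 2, and Planococcaceae led in model mouse 6 and in hydroxytyrosol mouse 4. Moraxellaceae, the family of Acinetobacter, held the largest mean share in model mice, at 56.2% ± 30.4 (SD, n = 6), against 11.9% ± 17.3 in hydroxytyrosol mice and 20.7% in control mice. The difference was -44.3 percentage points, with p = 0.0173 before and 0.102 after adjustment (two-sided exact permutation test over the mice), and a hydroxytyrosol mouse had the higher share in 5 of 36 pairs. In counts, it was not past the threshold (log2 fold change -2.98, SE 1.53, edgeR adjusted p = 0.227). Without hydroxytyrosol mouse 2 the difference was -50.9 percentage points and the log2 fold change -4.39 (edgeR adjusted p = 0.0601), and without model mouse 6 they were -55.4 and -3.22 (edgeR adjusted p = 0.141). The hydroxytyrosol mice were led by several families. Hydroxytyrosol mouse 1 held 70.8% and hydroxytyrosol mouse 6 47.4% Enterobacteriaceae, facultative anaerobes that include Shigella, while the other hydroxytyrosol mice held 0.0898% to 0.855%. Staphylococcaceae, salt-tolerant cocci of skin and litter, held 40.9% of hydroxytyrosol mouse 3, 24.6% of mouse 4 and 56.5% of mouse 5. Planococcaceae, aerobic relatives of Bacillus, held 44.6% of hydroxytyrosol mouse 4 and 24.8% of mouse 2. They also held 42.0% of model mouse 6, the model mouse with almost no Moraxellaceae.

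**Figure D1:**
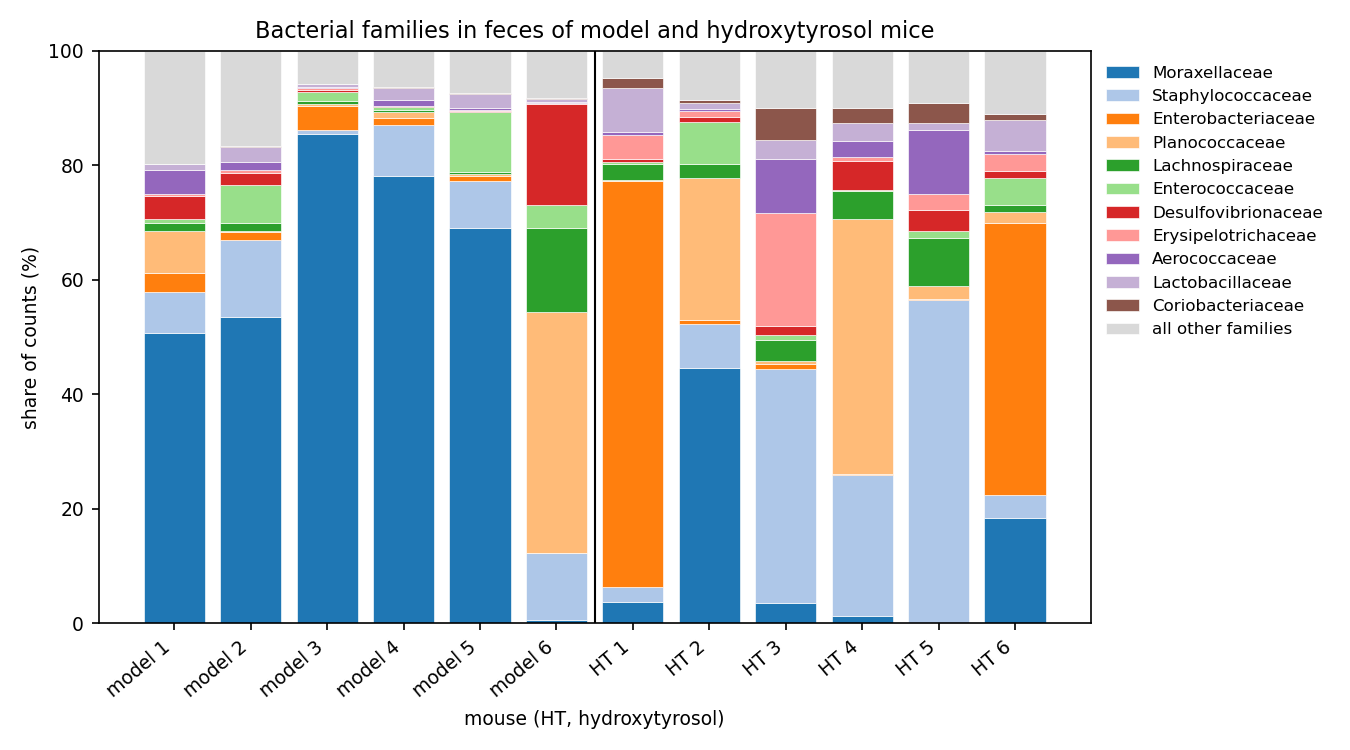
Share of counts (%, stacked from 0 to 100) of the 11 families with the largest mean shares and of all other families in each of the 6 model mice and 6 hydroxytyrosol (HT) mice. Moraxellaceae fill 50.8% to 85.5% of 5 model mice and 0.601% of model mouse 6, and the hydroxytyrosol mice are led by several different families.

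Counts summed per family were compared by edgeR's quasi-likelihood test for the 59 of 177 families that reached 10 counts in 4 or more mice. At a Benjamini-Hochberg adjusted p under 0.05, 7 of the 59 families differed (11.9%), 3 of them higher (5.08%) and 4 lower (6.78%) in hydroxytyrosol mice. The tested families held 99.6% of the counts. The median log2 fold change over the 59 families was -1.0, and it was -0.56 without TMM scaling, -0.21 in DESeq2 and 0.57 with centred log-ratios. Fold changes are therefore to be read against that median and not against 0. Without TMM scaling, 3 families were higher and 2 lower. The shares of the 6 and 6 mice did not overlap in 3 families (5.08%), and in each of them hydroxytyrosol mice had the higher shares. In the exact permutation test of shares, 13 of the 59 families had an unadjusted p under 0.05 (22%), and these 3 were past the threshold after adjustment (5.08%). Of 9 phyla, 1 had an unadjusted p under 0.05 in that test (11.1%), which was the sequences classified no further than Bacteria, and 0 had an adjusted one. All p-values measure the spread between mice of a group. The number of called families fell to between 1 and 3 without model mouse 4 or 5 or without hydroxytyrosol mouse 1, 3, 4, 5 or 6, and it was 11 without hydroxytyrosol mouse 2.

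Coriobacteriaceae, anaerobic Actinobacteria known for metabolizing bile acids and plant phenols, rose in hydroxytyrosol mice. They held 0.0467%, 0.124%, 0.0711%, 0.00717%, 0.0948% and 0.160% of the counts in model mice 1 to 6. In hydroxytyrosol mice 1 to 6 they held 1.69%, 0.551%, 5.56%, 2.56%, 3.40% and 1.11%. Every hydroxytyrosol mouse was above every model mouse, and the log2 fold change was 4.12 (SE 0.918, edgeR adjusted p = 0.0117, 3.88 to 4.61 with each mouse left out in turn). Coriobacteriaceae were the only family called in all 12 such fits. Control mice held 0.924%. The family was led by different ASVs in the 2 groups, as a single ASV of Collinsella stercoris (ASV_11531) held 96.4% of its counts in hydroxytyrosol mice and 1.01% in model mice.

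[Odoribacteraceae], anaerobic Bacteroidales of the colon that include butyrate producers, also rose. Model mice 1 to 6 held 0.0262%, 0.00216%, 0.0109%, 0%, 0.00192% and 0%, and hydroxytyrosol mice 1 to 6 held 0.104%, 0.232%, 0.574%, 0.131%, 0.168% and 1.56%. The ranges did not overlap, and the log2 fold change was 5.95 (SE 1.40, edgeR adjusted p = 0.0117, 4.62 to 6.97 with each mouse left out). The call was lost without hydroxytyrosol mouse 6, which held the highest share. Control mice held 0.887%. However, its ASVs were not those of the control mice, since 93.7% of its counts in hydroxytyrosol mice were in ASVs that no model mouse held and 2.55% were in ASVs that any control mouse held.

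Erysipelotrichaceae, anaerobic Firmicutes of the gut, were the third family that rose. Model mice 1 to 6 held 0.316%, 0.630%, 0.430%, 0.0502%, 0.156% and 0.127%, and hydroxytyrosol mice 1 to 6 held 4.23%, 0.995%, 19.7%, 0.702%, 2.77% and 2.92%. Hydroxytyrosol mouse 3 stood far above the others, and the lowest hydroxytyrosol mouse was just above the highest model mouse. As shares of all counts but those of Acinetobacter the groups overlapped, from 0.127% to 2.72% in model and from 0.71% to 19.7% in hydroxytyrosol mice, higher in the latter in 33 of 36 pairs (exact permutation test, p = 0.0216). The log2 fold change was 3.43 (SE 0.959, edgeR adjusted p = 0.0283, 2.74 to 3.99 with each mouse left out), and the call was lost without model mouse 4 or 5 or without hydroxytyrosol mouse 1, 3, 5 or 6. Control mice held 1.24%. Pooled over the mice of a group, an ASV of the genus Clostridium (ASV_80110) held 56.2% of the counts of the family in model mice and 51.1% in hydroxytyrosol mice. The pooled shares rested on some of the mice, since the whole genus had 3, 16 and 5 of the 49, 163 and 127 counts of the family in model mice 4, 5 and 6, and hydroxytyrosol mouse 3 held 12037 of its counts against 317 to 1958 in the others.

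The 4 families that fell in edgeR were scarce in both groups, and none of these 4 calls held with centred log-ratios (adjusted p of 0.354 for Caulobacteraceae, 0.350 for Micrococcaceae, 0.0719 for Xanthomonadaceae and 0.201 for the unclassified Bacteria, limma). Xanthomonadaceae, aerobic Gammaproteobacteria of water and soil, held 0% in model mouse 1 and 0.0528% to 0.179% in the other model mice, and at most 0.00690% in hydroxytyrosol mice (log2 fold change -5.35, SE 1.52, edgeR adjusted p = 0.0283). Micrococcaceae, aerobic Actinobacteria that are mostly Arthrobacter here, held a median of 0.502% in model mice, from 0.00797% to 2.51%, and a median of 0.0705% in hydroxytyrosol mice, from 0.0154% to 0.241% (log2 fold change -4.29, SE 1.28, edgeR adjusted p = 0.0291). The ranges overlapped, and model mouse 6 was below every hydroxytyrosol mouse. Caulobacteraceae, oligotrophic bacteria of water, had a log2 fold change of -5.54 (SE 1.6, edgeR adjusted p = 0.0283), but model mouse 2 held 3.63% where the other model mice held at most 0.09%, and without it the value was -1.32 and the call was lost. Sequences that were classified no further than Bacteria held 0.0329% to 0.723% in model mice and 0.0241% to 0.132% in hydroxytyrosol mice (log2 fold change -3.49, SE 1.05, edgeR adjusted p = 0.0291). Each of the 4 calls was lost in 7 of the 12 fits with a mouse left out, which were those without any of hydroxytyrosol mice 1, 3, 4, 5 and 6 and without model mouse 4 and model mouse 5 (model mouse 2 in place of model mouse 5 for Caulobacteraceae). The summed share of the listed aerobic genera ran from 42.9% to 86.6% in model mice and from 2.56% to 61.8% in hydroxytyrosol mice. That sum includes Stenotrophomonas of the Xanthomonadaceae and Arthrobacter of the Micrococcaceae, and its relation to the 4 calls was not tested.

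**Figure D2:**
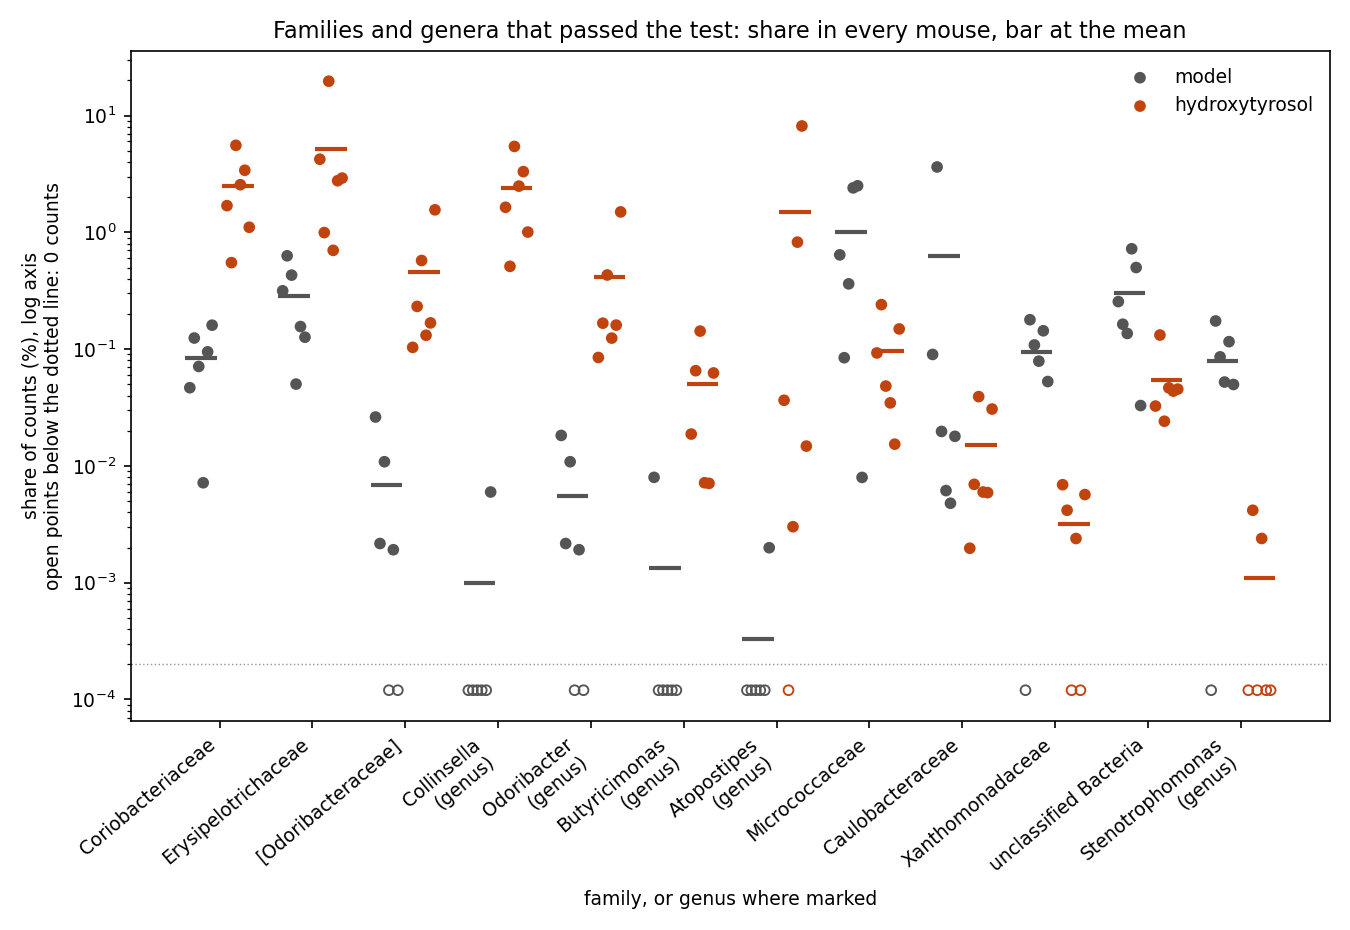
Share of counts (%, log axis) of the 7 families and 5 genera with an adjusted p under 0.05 in edgeR, in each model mouse and each hydroxytyrosol mouse, with a bar at the group mean and open points below the dotted line for mice with 0 counts. For Coriobacteriaceae, Erysipelotrichaceae, [Odoribacteraceae], Collinsella and Odoribacter all 6 hydroxytyrosol mice lie above all 6 model mice, and for Caulobacteraceae model mouse 2 alone lies at 3.63%.

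The other 11 families with a mean share of at least 1% in either group, Moraxellaceae among them, were not past the threshold in edgeR. Staphylococcaceae held 8.40% ± 4.43 (SD, n = 6) in model and 22.8% ± 22.1 in hydroxytyrosol mice (exact permutation test, p = 0.173), and 1 ASV of Jeotgalicoccus psychrophilus (ASV_48019) held 78.6% of the counts of the family in the latter, pooled over the mice. That value rested on hydroxytyrosol mice 3, 4 and 5, since the ASV had 584 of 2638, 512 of 5594 and 137 of 3643 counts of the family in mice 1, 2 and 6. Enterobacteriaceae held 1.77% ± 1.56 and 20.0% ± 31.2 (exact permutation test, p = 0.435), and by mean ranks hydroxytyrosol mice were the lower group. Planococcaceae held 8.54% and 12.4% with SDs above the means. Their leading ASVs rested on 1 mouse each, as all 31203 counts of ASV_8872 in model mice were in model mouse 6 and hydroxytyrosol mouse 4 held 28542 counts of ASV_15844, with at most 1274 in any other hydroxytyrosol mouse. Ruminococcaceae, fiber-degrading Clostridiales, held 0.609% ± 0.712 and 1.43% ± 0.506, higher in hydroxytyrosol mice in 31 of 36 pairs (exact permutation test, p = 0.0519, adjusted p = 0.192). Among counts other than those of Acinetobacter, their shares differed by 0.247 percentage points (exact permutation test, p = 0.714). Lachnospiraceae held 3.17% and 3.94%, with 14.6% in model mouse 6, and Lactobacillaceae, which ferment sugar to lactate, held 1.56% and 3.60%. Verrucomicrobiaceae, the mucin degraders with Akkermansia, held 1.07% and 1.42%. The sign of each of these last 3 differences turned when shares were taken of all counts but those of Acinetobacter. Aerococcaceae held 1.25% and 4.16%, Desulfovibrionaceae, which reduce sulfate, 4.0% and 2.21%, and Enterococcaceae 4.02% and 2.39% (exact permutation tests, p = 0.262, 0.823 and 0.439). S24-7, the main Bacteroidales family of the mouse gut, was below that minimum and was added after its values were seen. It held 17.2% in control mice, 0.252% ± 0.228 (SD, n = 6) in model mice and 0.843% ± 0.295 in hydroxytyrosol mice, and hydroxytyrosol mice were higher in 34 of 36 pairs (exact permutation test, p = 0.00649, adjusted p = 0.0639, edgeR adjusted p = 0.412).

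At genus level, 5 of 101 tested genera were called (4.95%), 4 higher (3.96%) and 1 lower (0.99%) in hydroxytyrosol mice. The shares did not overlap in 4 genera (3.96%), with hydroxytyrosol mice above. In the exact permutation test of shares, 23 genera had an unadjusted p under 0.05 (22.8%) and 0 an adjusted one. The median log2 fold change over the 101 genera was -0.61, and -0.05 without TMM scaling. In DESeq2, 9 genera were higher and 6 lower. The number of called genera was 1 without model mouse 2, 4 or 5 or hydroxytyrosol mouse 1 or 6, 2 without model mouse 3 or 6, 3 without hydroxytyrosol mouse 4, and 11 without hydroxytyrosol mouse 2.

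Collinsella, the genus that carried the Coriobacteriaceae, was called in all 12 fits with a mouse left out. It held 1.64%, 0.512%, 5.44%, 2.49%, 3.31% and 1.01% in hydroxytyrosol mice 1 to 6. Among model mice only mouse 6 had any, at 0.00598%. ASV_11531 held 99.5% of its counts in hydroxytyrosol mice and was also the only Collinsella ASV of the control mice, which held 0.000598% of it.

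Odoribacter, a butyrate producer of the Bacteroidales, held 0.0848%, 0.167%, 0.431%, 0.124%, 0.161% and 1.5% in hydroxytyrosol mice 1 to 6 and at most 0.0182% in model mice (log2 fold change 6.01, SE 1.42, edgeR adjusted p = 0.0242, 4.40 to 6.80 with each mouse left out). The call was lost without model mouse 2, 4, 5 or 6 or without hydroxytyrosol mouse 1 or 6. It had 2192 counts in hydroxytyrosol mice, 31 in model mice and 3799 in control mice. The 3 Odoribacter ASVs that passed the test held 97.0% of the counts in hydroxytyrosol mice and 0% in model and in control mice, so that the Odoribacter of hydroxytyrosol mice had other sequences than those of the control mice.

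Butyricimonas, a close relative of Odoribacter, was found in every hydroxytyrosol mouse at 0.0187%, 0.0653%, 0.143%, 0.00717%, 0.00709% and 0.0625%, and among model mice in mouse 1 alone, at 0.00798% (log2 fold change 5.12, SE 1.43, edgeR adjusted p = 0.0484, 4.87 to 8.43 with each mouse left out). The call held in 2 of 8 fits in which the genus passed the filter. Control mice had no counts of it. Atopostipes, a lactic acid bacterium of the order Lactobacillales, reached 8.15% in hydroxytyrosol mouse 5 and 0.825% in mouse 4, with 0% to 0.0365% in the other 4, and 0.00199% in model mouse 6 alone. Its log2 fold change of 10.94 (SE 2.64, edgeR adjusted p = 0.0242, 9.96 to 13.07 with each mouse left out) was called in 3 of 8 such fits and not with centred log-ratios (limma adjusted p = 0.0608).

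Stenotrophomonas, an aerobic genus of the Xanthomonadaceae, was the only genus that fell. It held 0% in model mouse 1 and 0.0498% to 0.174% in the other model mice, and it had counts in hydroxytyrosol mice 2 and 4 alone, at 0.00417% and 0.00239% (log2 fold change -6.62, SE 1.66, edgeR adjusted p = 0.0253, -7.79 to -6.01 with each mouse left out). The call was lost without model mouse 2, 3, 4 or 5 or without hydroxytyrosol mouse 1 or 6.

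Some genera that were not called had shares with little overlap between the groups. Clostridium of the Erysipelotrichaceae held 0.175% ± 0.200 (SD, n = 6) in model and 2.96% ± 4.53 in hydroxytyrosol mice, higher in 35 of 36 pairs (exact permutation test, p = 0.00433, adjusted p = 0.0820, edgeR adjusted p = 0.152). Oscillospira, an uncultured fermenter of the Ruminococcaceae, held 0.310% ± 0.355 and 1.05% ± 0.434, higher in 33 of 36 pairs (exact permutation test, p = 0.0108, adjusted p = 0.109, edgeR adjusted p = 0.444), and as a share of all counts but those of Acinetobacter its difference had a p of 0.219 in the same test. Acinetobacter itself held 53.5% ± 30.3 and 11.2% ± 17.5 (exact permutation test, p = 0.0260, adjusted p = 0.158, edgeR adjusted p = 0.337). Psychrobacter, a cold-tolerant member of the same family, held 2.34% ± 2.67 and 0.651% ± 1.39, higher in hydroxytyrosol mice in 5 of 36 pairs (exact permutation test, p = 0.190).

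Other genera with large means rested on few mice. Shigella held 70.5% of hydroxytyrosol mouse 1 and 47.3% of mouse 6, and at most 0.0898% of the other 4, against 0.00996% to 2.63% in model mice. Sporosarcina held 41.9% of model mouse 6, where ASV_8872 led, and 43.1% of hydroxytyrosol mouse 4, where ASV_15844 was at 34.1%. Jeotgalicoccus held 35.9%, 22.5% and 54.9% of hydroxytyrosol mice 3, 4 and 5 and 0.173% to 1.13% of the others, while it held 0.224% to 11.02% of the model mice. Kurthia held 10.3% of hydroxytyrosol mouse 2 and at most 0.00503% of the others, and [Eubacterium] held 6.75% of mouse 3. [Ruminococcus], mucin-degrading Lachnospiraceae, held 13.8% of model mouse 6 and 0.0809% to 0.607% of the other model mice, against 0.552% to 4.73% in hydroxytyrosol mice. Its mean difference of -0.0754 percentage points was 2.19 without model mouse 6. Enterococcus held 3.68% ± 3.72 and 0.838% ± 0.881, while unclassified Enterococcaceae held 0.330% ± 0.253 and 1.54% ± 2.20 (exact permutation tests, p = 0.102 and 0.260).

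Genera were also counted by habit, in 10 lists written from general knowledge, beside the median log2 fold change of -0.61 over the 101 genera, of which 3.96% were called higher and 0.99% lower. Of 25 listed aerobes, 16 taxa were tested, 12 had a log2 fold change below 0 and 4 above, and the median was -2.77. Over all 101 tested genera, 39 had a log2 fold change above 0. Of the 12 aerobes below 0, Bacillus of the Bacillaceae (-0.49) and Sporosarcina (-0.39) lay above the median of all genera. Stenotrophomonas was the only listed aerobe called. The lower ones included Sphingobacterium (-5.10), Arthrobacter (-4.17) and Pseudomonas of the Pseudomonadaceae (-4.02), with edgeR adjusted p of 0.0999, 0.160 and 0.227, and the 4 above 0 were members of the Planococcaceae. The summed share of the aerobes was 42.9% in model mouse 6 and 60.01% or more in the other model mice, and 61.8% and 46.3% in hydroxytyrosol mice 2 and 4 against 2.56% to 20.6% in the other 4. Clostridial fermenters, anaerobes of which many make butyrate or acetate, had 11 tested taxa with a median of 1.04 and no call. Their summed share was 3.17% to 16.2% in hydroxytyrosol mice, and 0.282% to 1.99% in model mice other than mouse 6, which held 14.4%. These sums include Clostridium of the Erysipelotrichaceae, a part of the rise of that family given above. It held 2.96% of hydroxytyrosol mice on average, and 12.1% of hydroxytyrosol mouse 3, where the sum was 16.2%. The 7 tested Bacteroidales had a median of 0.26 with 2 higher (Butyricimonas and Odoribacter), and the 4 tested Erysipelotrichi had a median of 3.34 with no call. The 3 tested genera of Coriobacteria and Bifidobacteria had a median of -0.04 with 1 higher (Collinsella). No genus was called among the 7 staphylococcal relatives (median -0.61), the 4 lactic acid bacteria (-1.13), the 2 enterobacteria (1.94), the 2 genera of the mucus layer (-0.05) and the 2 anaerobic gut Proteobacteria (-1.48). The list of lactic acid bacteria held Enterococcus, Lactococcus, Streptococcus and Lactobacillus among the tested genera and left out Atopostipes, which was called higher.

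ASVs were compared by the same test. Of 290 tested ASVs, 95 were called (32.8%), 24 higher (8.28%) and 71 lower (24.5%) in hydroxytyrosol mice, with a median log2 fold change of -1.34 over the 290. The tested ASVs were 290 of 5838 and held 83.8% of the counts. An ASV without counts in one group passes the filter only if it is abundant in the other, and 67 of the 71 lower ASVs had 0 counts in all hydroxytyrosol mice, as 20 of the 24 higher ASVs had in all model mice. The shares of the 6 and 6 mice did not overlap in 20 ASVs (6.9%), with hydroxytyrosol mice above in 15 and below in 5. Of the 95 called ASVs, 51 had an unadjusted p under 0.05 in an exact permutation test of ranks, 92 were also called by DESeq2 and 93 with centred log-ratios. Without model mouse 3, 41 of 218 tested ASVs were called (23 higher and 18 lower). Without model mouse 4 these were 34 of 211 (21 and 13), and without model mouse 5 they were 35 of 216 (21 and 14). The larger number of lower ASVs thus depended on each of these mice, and fewer ASVs reached the filter without them. When an ASV needed 50 counts in 4 mice, 33 of 114 tested ASVs were called, and without a filter 0 of 5838 were called (1881 at an unadjusted p under 0.05).

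**Figure D3:**
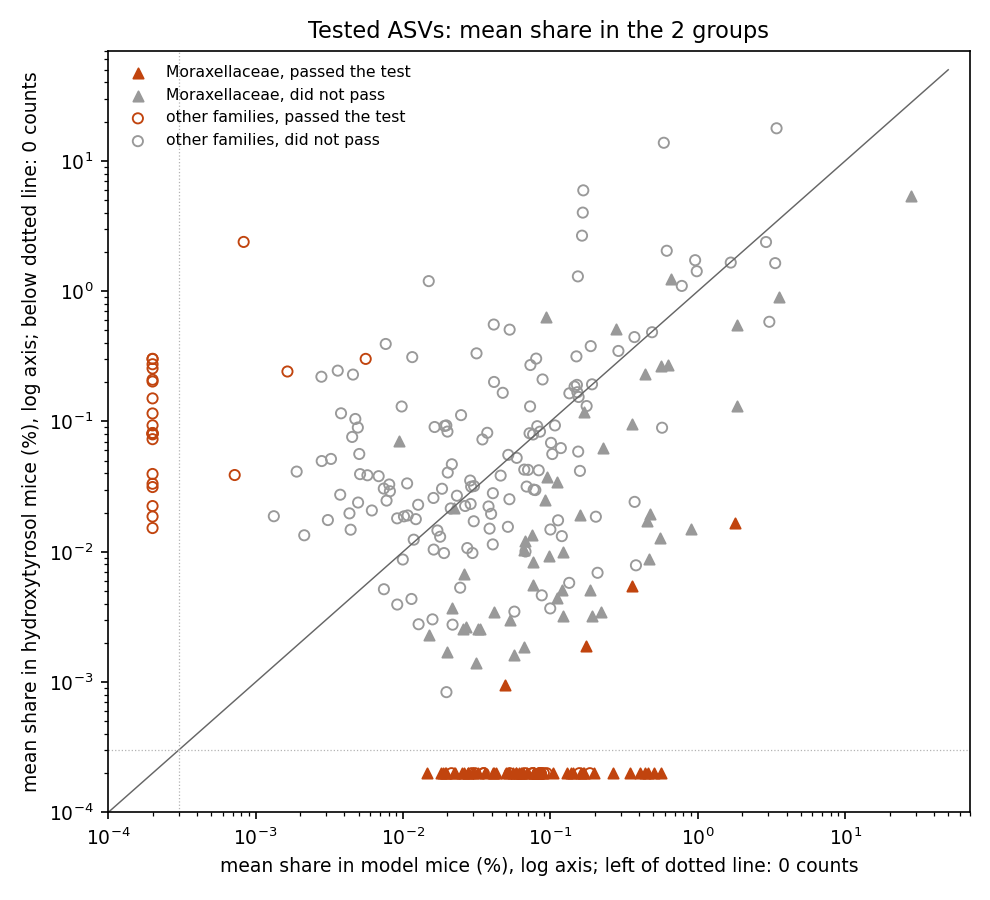
Mean share of counts (%) of each of the 290 tested ASVs in the 6 model mice (horizontal, log axis) and the 6 hydroxytyrosol mice (vertical, log axis), with triangles for Moraxellaceae, orange for ASVs that passed the test and dotted lines beyond which a group had 0 counts. Of 71 lower ASVs 55 are Moraxellaceae and 67 lie in the strip without counts in hydroxytyrosol mice, and 20 of the 24 higher ASVs lie in the strip without counts in model mice.

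Of the 10 most abundant ASVs, 9 were tested and none was called in edgeR, and ASV_8872 of Sporosarcina, present in 1 model mouse, did not reach the filter.

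The 24 higher ASVs came from several families. Ruminococcaceae gave 4 of them, among 21 tested, with 2 of Oscillospira and 1 of Subdoligranulum variabile, a butyrate producer. Lachnospiraceae, Desulfovibrionaceae and [Odoribacteraceae] gave 3 each, among 13, 7 and 4 tested, and Bacteroides gave 2 of 5, where 8.28% of all tested ASVs rose. In all, the 24 ASVs held 3.61% to 9.50% of the counts in hydroxytyrosol mice and at most 0.0184% in model mice. The most abundant was ASV_11531 of Collinsella stercoris, with 2.39% on average and 0.00083% in model mice. ASV_1360 of unclassified Enterococcaceae had 0 counts in every model mouse and 0.0215% to 1.22% in the hydroxytyrosol mice. It was at least 97.6-fold higher against a floor of 3 counts in each model mouse (edgeR adjusted p = 0.00404), and the bound was 38.1-fold without the mouse that held the highest share. ASV_2594 of Odoribacter was in all 6 hydroxytyrosol mice and in no model mouse, at least 65.5-fold higher (edgeR adjusted p = 0.00404), and still 32.0-fold without hydroxytyrosol mouse 6. ASV_68181 of the Lachnospiraceae and ASV_20552 of the Lactobacillales were in 5 hydroxytyrosol mice each and in no model mouse, at least 48.6-fold and 67.6-fold higher (both edgeR adjusted p = 0.00404, and both p = 0.0152, adjusted p = 0.0697, in the exact permutation test), and each bound was 32.0-fold without the mouse that held the most. ASV_16134 of [Ruminococcus] gnavus, at least 82.5-fold higher, was in 4 hydroxytyrosol mice, and the bound was 13.2-fold without the highest of them (exact permutation test, p = 0.0606, adjusted p = 0.126). Control mice had no counts of ASV_1360, ASV_2594, ASV_68181, ASV_20552 or ASV_16134. ASV_11531 and ASV_1360 were found in all 6 salidroside and all 6 tyrosol mice. ASV_2594 was in 5 salidroside and 6 tyrosol mice, and ASV_20552 in 4 and 6. ASV_68181 was in 3 tyrosol mice and no salidroside mouse, and ASV_16134 in 1 salidroside mouse and no tyrosol mouse. ASV_1360 held means of 0.979% in salidroside, 0.254% in tyrosol and 0.302% in hydroxytyrosol mice. For ASV_2594 these means were 0.0403%, 0.0502% and 0.203%.

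The lower ASVs were mostly Acinetobacter. Of 105 tested Moraxellaceae ASVs, 55 fell and none rose, and 51 of them were among the 99 tested Acinetobacter ASVs, where 24.5% of all tested ASVs fell. They belonged to A. lwoffii (13 of 27 tested), A. johnsonii (3 of 4), A. schindleri (2 of 4) and sequences without a named species (33 of 64). Hydroxytyrosol mice 3, 4 and 5 held only 5, 5 and 3 Acinetobacter ASVs. An Acinetobacter ASV of hydroxytyrosol mice alone could therefore hardly reach the filter of 4 mice, and the direction of these calls was largely set by it. The 71 lower ASVs together held 0.0916% of the counts in model mouse 6 and up to 15.4% in the other model mice, and at most 0.0806% in hydroxytyrosol mice. The largest fold was that of ASV_43260 of Acinetobacter, which was in 4 model mice at up to 1.17% and had 0 counts in every hydroxytyrosol mouse, at least 163-fold lower against 3 counts in each (edgeR adjusted p = 0.00404), and at least 128-fold lower when the model mouse with the most of it was left out. It passed the filter through those 4 model mice, its shares overlapped at 0 between the groups, and the exact permutation test of its shares gave p = 0.0606 (adjusted p = 0.126). ASV_35681 of A. schindleri and ASV_46648 of A. lwoffii, each in 5 model mice and absent from the counts of every hydroxytyrosol mouse, were at least 147-fold and 134-fold lower (both edgeR adjusted p = 0.00404, and both p = 0.0152, adjusted p = 0.0697, in the exact permutation test). Without the model mouse with the most of each, the bounds were 112-fold and 69.7-fold. Outside the Moraxellaceae, the lower ASVs included 1 of Staphylococcus sciuri (ASV_27040), found in all 6 model mice at a mean of 0.157% and in no hydroxytyrosol mouse. The called ASVs named here kept their calls in every fit with a mouse left out in which they reached the filter, which were 8 of 12 fits for ASV_16134, ASV_35681 and ASV_43260 and 12 of 12 for the others. An ASV with 0 counts in a whole group reaches the filter only through the other group. The fits that remained could therefore hardly lose the call and say little about its stability.

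The dominant Acinetobacter ASV was found in all 6 model mice and in 5 of 6 hydroxytyrosol mice. ASV_14106 of A. lwoffii held 49.4% to 60.2% of the Acinetobacter counts in model mice 1 to 5. It held 57.9%, 45.3% and 50.8% of them in hydroxytyrosol mice 1, 2 and 6, which had at least 3756 Acinetobacter counts each. In the mice with fewer, it held 37.1% of 167 counts in model mouse 6, and 0% of 31, 95.7% of 982 and 76.5% of 34 in hydroxytyrosol mice 3, 4 and 5. Its share of all counts was not past the threshold (27.9% ± 16.1 and 5.42% ± 7.93, SD, n = 6, edgeR adjusted p = 0.376). Hydroxytyrosol mouse 2, with 44.1% Acinetobacter and 158 Acinetobacter ASVs, resembled model mouse 1 in both (42.5% and 206 ASVs). Of the 158 Acinetobacter ASVs of hydroxytyrosol mouse 2, 94 were also found in a model mouse and 19 in another hydroxytyrosol mouse. Of the 637 and 202 Acinetobacter ASVs of the groups, 106 were found in both, which is 16.6% of the former and 52.5% of the latter. Over all ASVs of the same table, 600 were found in both groups, which is 17.2% of those of model mice and 20.3% of those of hydroxytyrosol mice.

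Richness was taken from the table that the authors rarefied to 39768 counts per mouse, in which the 12 mice held 4927 ASVs. Model mice 1 to 6 had 963, 661, 884, 902, 820 and 500 ASVs, and hydroxytyrosol mice 1 to 6 had 470, 881, 456, 610, 595 and 506. Hydroxytyrosol mouse 2 was as rich as the model mice, and model mouse 6 was as poor as the hydroxytyrosol mice. Observed ASVs differed by -202, with p = 0.0671 before and 0.201 after adjustment over 6 indices (two-sided exact permutation test). The value was -261 without hydroxytyrosol mouse 2 (p = 0.0216) and -260 without model mouse 6 (p = 0.0173, same exact test). With any other mouse left out it was -227 to -167, with p of 0.0584 to 0.121 in the same exact test. Control mice had 1103 ± 194 (SD, n = 6). At higher levels the spread between mice was larger than the differences, with 75.7 ± 17.2 named genera in model and 72.7 ± 7.06 in hydroxytyrosol mice (exact permutation test, p = 0.831) and 55.7 ± 12.2 and 48.3 ± 5.24 named families (exact permutation test, p = 0.219). Without model mouse 2, which had 109 genera, hydroxytyrosol mice had on average 3.67 more genera.

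Moraxellaceae held most of the ASVs by which the groups differed. Model mice had 261 ± 165 Moraxellaceae ASVs (SD, n = 6) and hydroxytyrosol mice 47.5 ± 64.2, which is -214 and thus 106% of the total difference (p = 0.0260 before and 0.167 after adjustment, exact permutation test). With the ASVs of Moraxellaceae left out, a choice made after seeing the data, model mice had 717, 528, 464, 484, 480 and 490 ASVs and hydroxytyrosol mice 439, 707, 442, 600, 590 and 455. The difference was then 11.7 (exact permutation test, p = 0.833), and that in Chao1 was 2.30 (exact permutation test, p = 0.981), where it had been -249 with all ASVs (exact permutation test, p = 0.0476, adjusted p = 0.201). The mice were no longer at even depth in this comparison. Moraxellaceae held 50.8% to 85.5% of the filtered counts in model mice 1 to 5 and 0.0543% to 18.3% in hydroxytyrosol mice other than mouse 2. These small differences therefore do not show that richness outside the family was alike. In Chao1 with all ASVs, the exact p was 0.0758 to 0.0996 without model mouse 1, 3, 4 or 5 or hydroxytyrosol mouse 1, 3, 4, 5 or 6. The Shannon index (base 2) differed by -0.748 with all ASVs (exact permutation test, p = 0.102). Without Moraxellaceae it was 5.68 ± 0.919 (SD, n = 6) in model and 4.34 ± 0.897 in hydroxytyrosol mice, a difference of -1.34 (exact permutation test, p = 0.0455). Simpson's index differed by -0.0397 (exact permutation test, p = 0.357), and by -0.115 without Moraxellaceae (exact permutation test, p = 0.0216).

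**Figure D4:**
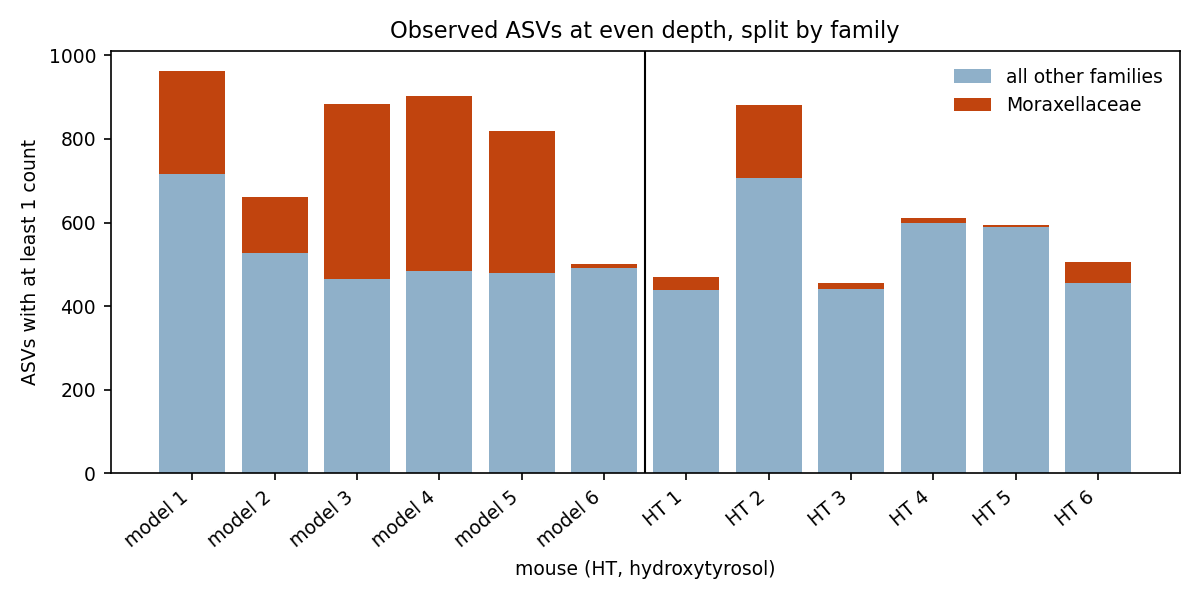
Number of ASVs with at least 1 count in the even-depth table, as bars from 0, for each of the 6 model mice and 6 hydroxytyrosol (HT) mice, split into Moraxellaceae (orange) and all other families (blue). Moraxellaceae give 133 to 420 ASVs in model mice 1 to 5, and the blue bars span 464 to 717 in model and 439 to 707 in hydroxytyrosol mice.

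Of 28 families with a mean of at least 5 ASVs, 8 differed in their number of ASVs at an unadjusted p under 0.05 (28.6%) and 0 after adjustment (two-sided exact permutation tests). In 3 of the 8 hydroxytyrosol mice had more ASVs. Ruminococcaceae had 3 to 40 in model mice (mean 26.7) and 37 to 55 in hydroxytyrosol mice (mean 45), more in 33 of 36 pairs (exact permutation test, p = 0.0108, adjusted p = 0.141). Erysipelotrichaceae had 9.83 ± 3.97 (SD, n = 6) and 19.0 ± 5.44, and Coriobacteriaceae 4.83 ± 2.79 and 10.3 ± 3.39 (both exact permutation test, p = 0.0152, adjusted p = 0.141). Beside Moraxellaceae, hydroxytyrosol mice had fewer ASVs of Lactobacillaceae (26.3 and 17.7), although the mean share of that family was not lower, of Comamonadaceae, aerobes of water (17.3 and 8.17), of Micrococcaceae (10.3 and 3.17) and of unclassified Gammaproteobacteria (9 and 3.50), each with an adjusted p of 0.167 in the exact permutation test. Staphylococcaceae, Planococcaceae, Lachnospiraceae, Enterobacteriaceae, Enterococcaceae, S24-7 and unclassified Bacillales, among the 10 families with the most ASVs, had p between 0.260 and 0.842 in the exact permutation test.

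Most ASVs were found in a single mouse. Of the 4927 ASVs at even depth, 506 occurred in both groups, 2388 in model mice alone and 2033 in hydroxytyrosol mice alone, and 1781 of the former and 1835 of the latter were in 1 mouse. The 506 shared ASVs were 17.5% of the ASVs and 82.3% of the counts of model mice, and 19.9% of the ASVs and 87.4% of the counts of hydroxytyrosol mice. All 6 hydroxytyrosol mice shared 55 ASVs, all 6 model mice 28, and all 12 mice 16.

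In Bray-Curtis distances, group accounted for an R2 of 0.236 at the level of genera (exact permutation test, p = 0.0325) and 0.259 at the level of families (exact permutation test, p = 0.0260), both with an adjusted p of 0.0325 over 3 levels. The genus result had a p between 0.0563 and 0.0628 in that exact test without model mouse 2, 3, 4 or 5 or hydroxytyrosol mouse 1, and the family result 0.0519 without model mouse 5. Hydroxytyrosol mice lay farther from one another than model mice did, with mean family-level distances of 0.658 and 0.463. Model mouse 6 was 0.821 from the other model mice and 0.664 from hydroxytyrosol mice, and hydroxytyrosol mouse 2 was 0.707 from its own group and 0.398 from model mice. Without model mouse 6 the family-level R2 was 0.389, and without hydroxytyrosol mouse 2 it was 0.345.

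The mice given salidroside or tyrosol on the same diet have their own values, which are set beside these without a test since they share the model mice. Coriobacteriaceae held 3.06% in salidroside and 3.09% in tyrosol mice, against 2.48% in hydroxytyrosol and 0.0841% in model mice. [Odoribacteraceae] held 0.0733% and 0.0829%, against 0.461% and 0.00686%. Erysipelotrichaceae held 3.96% and 2.08%, against 5.22% and 0.285%. Moraxellaceae held 33.3% and 47.9%, against 11.9% and 56.2%. Micrococcaceae held 0.204% and 0.728%, against 0.0967% and 1.0%. At even depth, salidroside and tyrosol mice had means of 182 and 200 Moraxellaceae ASVs, between the 47.5 of hydroxytyrosol and the 261 of model mice.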

How the data were processed

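DNA from mouse stool was amplified at the 16S rRNA gene by PCR and sequenced, although the labels call the molecule total RNA. The deposited tables give whole-number counts of each amplicon sequence variant (ASV) per mouse with its taxonomy. According to the methods, FLASH was used to merge the reads, QIIME to filter them and UCHIME to remove chimeras before the counts were made by the authors, and the processing notes name cutadapt. The methods describe sequence clusters, whereas the deposited read log lists a denoising step and the tables hold ASVs. The filtered counts, from which the authors removed ASVs with a single count, served for shares and tests, and counts that the authors subsampled to 39768 per mouse served for richness and distances. The version of the taxonomy is not given in the sources used here. Names were used as deposited, and species names from a single gene fragment are uncertain among close relatives.

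Counts were summed by family and genus. Taxa that reached 10 counts in 4 or more mice were tested in edgeR (4.0.16, TMM, quasi-likelihood test, Benjamini-Hochberg threshold 0.05) with the 6 hydroxytyrosol and 6 model mice in the fit. Shares of the total and richness were compared by two-sided exact permutation tests over all 924 splits, with 0.0022 as the smallest p, and Bray-Curtis distances by an exact PERMANOVA over the same splits. Fold bounds of ASVs without counts in a group take 3 counts per mouse as the floor. Named were families and genera with a mean share of at least 1% or called in edgeR, the 10 most abundant ASVs, and up to 8 called ASVs in each direction with the largest fold changes. S24-7, Sphingobacterium, Arthrobacter, Pseudomonas and ASV_27040 were added after their values were seen. The groups, the members and the 10 lists of genera were chosen with earlier results of these data known. Alternatives were DESeq2 (1.42.0), centred log-ratios with limma (3.58.1), other scalings, filters and tables, a replicate block, all 30 mice in 1 fit, and each mouse left out. The scripts for edgeR and the exact tests were tested on simulated data. R 4.3.3, Python 3.11.15 and scipy 1.17.1 were used.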

Additional observations from a re-analysis of the deposited data

Results flagged for a closer look

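In 36 of 106 groups of 6 mice, 1 mouse lay far from the other 5 (its gap to the nearest mouse divided by the range of the group was above Dixon's limit). That is 34.0%. Dixon's limit is set for normally distributed values, which these shares need not be, so no rate expected by chance is given. A group with counts in 1 mouse alone is always flagged, as for Atopostipes, Butyricimonas and Collinsella in model mice. Many of the taxa are parts of one another. Model mouse 1 stood apart in Verrucomicrobia, Verrucomicrobiaceae and Akkermansia at 5.36% each, Aerococcaceae at 4.28% and Aerococcus at 4.2%. The same mouse stood apart in Ruminococcaceae at 2.01%, Oscillospira at 0.989%, Butyricimonas at 0.00798%, Lysinibacillus at 4.48%, Psychrobacter at 7.57% and unclassified Planococcaceae at 0.719%. Model mouse 2 stood apart with 109 named genera and with Caulobacteraceae at 3.63%, and model mouse 5 with unclassified Enterococcaceae at 0.815%. Model mouse 6, nearly free of Acinetobacter, stood apart in Firmicutes at 78.2%, Planococcaceae at 42.0% and Sporosarcina at 41.9%. It did so as well in Desulfovibrionaceae at 17.7%, their unidentified genus at 16.8%, Lachnospiraceae at 14.6% and [Ruminococcus] at 13.8%. It was also flagged in Atopostipes at 0.00199% (2 counts) and Collinsella at 0.00598% (6 counts).

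Hydroxytyrosol mouse 2 stood apart with 881 observed ASVs, with sequences classified no further than Bacteria at 0.132%, with Kurthia at 10.3% and with unclassified Planococcaceae at 7.78%. Hydroxytyrosol mouse 3 stood apart in Erysipelotrichaceae at 19.7%, Clostridium of the Erysipelotrichaceae at 12.1%, Aerococcus at 9.23%, [Eubacterium] at 6.75% and Psychrobacter at 3.48%. Sporosarcina at 43.1% set hydroxytyrosol mouse 4 apart, and Atopostipes at 8.15% set mouse 5 apart. Hydroxytyrosol mouse 6 stood apart in [Odoribacteraceae] at 1.56% and Odoribacter at 1.5%.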

How the results depend on the processing

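Called families numbered 4 with centred log-ratios (the 3 higher ones, none of the 4 lower ones, and Sphingobacteriaceae) and 14 of 177 without a filter. They numbered 3 with the replicate block and 3 in the exact permutation test of mean ranks per taxon, which was added after seeing the data. Called genera numbered 15 in DESeq2, 8 with centred log-ratios, 19 of 341 without a filter and 3 of 60 with a minimum of 50 counts. They numbered 3 with the replicate block and 0 by mean ranks (18 at an unadjusted p under 0.05 in edgeR). Called ASVs numbered 0 of 5838 without a filter (1881 at an unadjusted p under 0.05 in edgeR), 33 of 114 with a minimum of 50 counts and 20 by mean ranks. With each mouse left out, called families ranged from 1 to 11, genera from 1 to 11 and ASVs from 34 (of 211 tested) to 125 (of 259 tested). Mice with the same number did not deviate together (correlations of -0.296 to 0.0981 over 101 genera, 0 of 6 best matched by their own number), so the numbers only name the mice. The replicate block also gave log2 fold changes of -1.57 for Enterobacteriaceae and -2.86 for Shigella.

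In exact permutation tests, observed ASVs differed by -278.5 in the filtered table (p = 0.0260), -143.5 when rarefied to 10000 counts (p = 0.0433) and 11.7 without Moraxellaceae. Chao1 in the same exact tests differed by -165 when rarefied (p = 0.134), by -249 with the replicate block (p = 0.0938, where 0.03125 is the smallest possible) and by 2.30 without Moraxellaceae. Without Moraxellaceae, Shannon differed by -1.34 and Simpson by -0.115. Observed genera differed by 0.667 in mean ranks. The replicate block left the R2 of Bray-Curtis distances at 0.234 for ASVs, 0.236 for genera and 0.259 for families, with exact p of 0.0938, 0.156 and 0.125. With each mouse left out, observed ASVs ranged from -261 to -167, Chao1 from -321 to -207, Shannon from -1.02 to -0.527, observed genera from -5.73 to 3.67, and R2 from 0.208 to 0.351 for genera and 0.226 to 0.389 for families. Families with an unadjusted p under 0.05 in their number of ASVs were 4 when rarefied, 4 with at least 2 counts for presence, 3 with the replicate block, and 4 to 9 with each mouse left out.

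By shares, 2 phyla had an unadjusted p under 0.05 when Acinetobacter was left out of the total (0 to 3 with each mouse left out), and 7 families (8 to 18 with each mouse left out) and 10 genera with the replicate block. Leaving out Acinetobacter turned the differences of Actinobacteria (-1.57 percentage points), Bacteroidetes (-0.834), Verrucomicrobia (-0.456), Verrucomicrobiaceae and Akkermansia (both -0.453), Lachnospiraceae (-0.199), Lactobacillaceae (-0.566), Lactobacillus (-0.519) and Aerococcus (-0.718). Mean ranks turned those of Desulfovibrionaceae (1.0), unidentified Desulfovibrionaceae (2.33), Enterobacteriaceae (-0.667), Shigella (-0.333), Aerococcus (-0.833), Kurthia (-2.0), [Ruminococcus] (3.67) and unclassified Planococcaceae (-0.667).

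Leaving out 1 mouse turned the sign of several differences in share, which ranged with each mouse left out from -0.0741 to 1.21 percentage points for Verrucomicrobia, -0.0730 to 1.21 for Verrucomicrobiaceae and Akkermansia, -2.58 to 0.949 for Desulfovibrionaceae, -2.13 to 1.22 for unidentified Desulfovibrionaceae, and -0.136 to 3.06 for Lachnospiraceae. The ranges were -0.565 to 2.19 for [Ruminococcus], -2.59 to 10.5 for Planococcaceae, -6.48 to 7.60 for Sporosarcina, -0.167 to 1.88 for Kurthia, -0.397 to 1.06 for Lysinibacillus, -0.855 to 1.25 for Aerococcus and -1.29 to 0.312 for Staphylococcus. The sign turned without hydroxytyrosol mouse 4 for Verrucomicrobia, Verrucomicrobiaceae, Akkermansia and Planococcaceae, without model mouse 6 for Desulfovibrionaceae and their unidentified genus, and without hydroxytyrosol mouse 5 for Lachnospiraceae. It turned without hydroxytyrosol mouse 2 for Kurthia and Lysinibacillus, without hydroxytyrosol mouse 3 for Aerococcus and without model mouse 2 for Staphylococcus. For Sporosarcina it turned without hydroxytyrosol mouse 4 or any of model mice 1 to 5, and for [Ruminococcus] without model mouse 6 or hydroxytyrosol mouse 1, 2, 3 or 6. The cause of these changes was not tested.

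Values of single taxa kept their direction and side of the threshold in 448 comparisons with another setting, while 19 turned, 50 lost the call or an unadjusted p under 0.05 and 10 gained it. With a mouse left out, 827 kept both, 22 turned, 80 lost it and 23 gained it. A share is limited by 3 counts in 71930 to 104427, and rare ASVs and low bounds are not detectable below that. With 6 mice a side, a p above the threshold does not show that the groups were alike. Shares do not give cell numbers. Cages were not given in the sources used here, so mice that shared a cage cannot be told apart from mice that did not.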
